A study of Mus musculus with 2 samples.

Results

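The nuclear genes for the subunits of the oxidative phosphorylation complexes were compared between keratinocytes of wild-type and K14-caSmad1 mice. The genes were taken by name: every gene spot in both scanner files whose gene name begins with Nduf, Sdh, Uqcr or Atp5, or with Cox followed by a digit from 4 to 8, leaving out the assembly factors named Ndufaf and Sdhaf. This gave 83 genes on 118 probes, among 27976 genes on 41174 probes in all. They comprised 36 genes of complex I, 4 of complex II, 7 of complex III, 19 of complex IV and 17 of complex V. Names are those of the array. RefSeq now lists Cox4nb as Emc8, Atp5s as Dmac2l and Atp5sl as Dmac2, none of them named as a subunit, and these 3 were kept because the choice was by name. It also lists Atp5f1 as Atp5pb and Uqcr as Uqcr11.

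Both groups were primary epidermal keratinocytes, cells of the outer skin layer, from epidermis of FVB/NJ mice aged 20 days. Wild-type mice were compared with K14-caSmad1 mice, transgenic animals that overexpress a constitutively active Smad1, the transcription factor through which bone morphogenetic proteins signal. K14 is the usual name of the keratin 14 promoter of basal keratinocytes. Each of 2 arrays, labelled as biological replicates, carried wild-type RNA in Cy3 and K14-caSmad1 RNA in Cy5, so a difference between genotypes and a difference between dyes cannot be told apart. The labels used here do not give the number of animals, pooling, sex or number of transgenic lines.

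Oxidative phosphorylation takes electrons from food molecules and uses them to make ATP in the inner mitochondrial membrane. Complex I accepts electrons from NADH and complex II, which is also an enzyme of the citric acid cycle, from succinate. Both hand them to ubiquinone. Complex III passes them on to cytochrome c, complex IV from there to oxygen, and complex V, the ATP synthase, uses the proton gradient that complexes I, III and IV build. Most subunits are encoded in the nucleus and a small number of core subunits in mitochondrial DNA, except those of complex II, which are all nuclear. Several complex IV subunits exist as a widely expressed form and a form of muscle, heart, lung or testis.

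Values are log2 ratios with K14-caSmad1 as numerator, so those above 0 are higher in K14-caSmad1. A gene counts as measured where, in at least 1 channel, its probe was flagged well above background on each array. Smad1, the overexpressed gene, had 0.28 and 0.27 on the measured one of its 2 probes. Whether that probe matches the transcript of the transgene was not tested, so this value does not check the labels. Of the 83 genes 78 were measured, 76 of them in both channels. The 5 others, Cox4i2, Cox6a2, Cox7b2, Cox8b and Cox8c, are tissue-specific forms of complex IV subunits and were not well above background. Of all genes, 11760 were measured. On replicates 1 and 2 there were 15570 and 16144 gene spots well above background in wild type and 14412 and 15800 in K14-caSmad1, and none (0) was saturated. Negative control spots varied more in Cy5 (SD 52.7 and 34.4) than in Cy3 (SD 11.1 and 10.8).

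The arrays repeated each other closely. Between arrays, the log2 ratio of probes with a single spot differed with an SD of 0.0946, where the spread of repeated spots predicts 0.106, and the means of 92 repeated probes with an SD of 0.0523, where it predicts 0.0336. Since these comparisons point both ways, the mean of both arrays was counted as 1 sample per genotype and both values are printed. Among the 78 measured subunit genes, 69 had array values within 0.1 of each other and 4 differed by over 0.2. The spread between arrays therefore says how well a measurement repeated. The spread between animals is not known from it.

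Most subunit genes differed little between the genotypes. A gene was called where it was at least 1.5-fold higher or at least 1.5-fold lower on both arrays. By this rule 4 subunit genes were higher and 9 lower, 16.7% of the 78, against 32.7% of all measured genes (13.2% higher and 19.5% lower). At 2-fold 1 was higher and 3 were lower, against 4.08% and 9.8% of all genes. Over the subunit genes the log2 ratios had a median of -0.12 and an SD of 0.50. Over all genes the median was -0.03 and the SD 0.87. The subunit genes were below 0 on both arrays in 45 cases and above 0 on both in 27, which turned to 28 and 49 with median centring and became 36 and 36 without background subtraction. In the values reported here that is 57.7% below 0, beside 50.3% of all genes. Within 0.2 of 0 lay 26 of them. Genes seen in wild type alone enter already differing, and of the 76 subunit genes seen in both channels 4 were higher and 7 lower, 14.5%, against 32.2% of the 9937 such genes. The distance between subunit genes and all genes depended on the processing. With all spots in the background fit 4 subunit genes were higher and 6 lower, beside only 960 and 860 of all measured genes. In the deposited ratios 5 were higher and 9 lower, beside 2688 and 2973 of all measured genes. In bulk RNA fewer cells of a type and less RNA per cell cannot be told apart.

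The complexes did not lie alike. Complex II had a median of 0.36 and complex IV one of -0.43. The medians of complex I (-0.15), complex III (0.06) and complex V (-0.02) were nearer to that of all genes. The calls fell by complex: all 4 higher genes belonged to complexes II and V, and the 9 lower genes were 3 of complex I, 1 of complex III and 5 of complex IV. Members of a complex are different genes and not replicates, so no test was made of these differences. Centring each array on its median in place of the loess curve moved the median of all genes from -0.03 to 0.22. Then 11 subunit genes were higher and 5 lower (2916 and 1491 of all genes). The higher genes then included Ndufb4 and Ndufb5 of complex I and Uqcrfs1 of complex III, so the split of higher calls by complex depended on the processing. Relative to the median of all genes, complex IV lay at -0.40 in the values reported here and at -0.37 with median centring, complex II at 0.39 and 0.44, complex I at -0.12 and -0.11, complex III at 0.09 and 0.09, and complex V at 0.01 and 0.02.

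**Figure D1:**
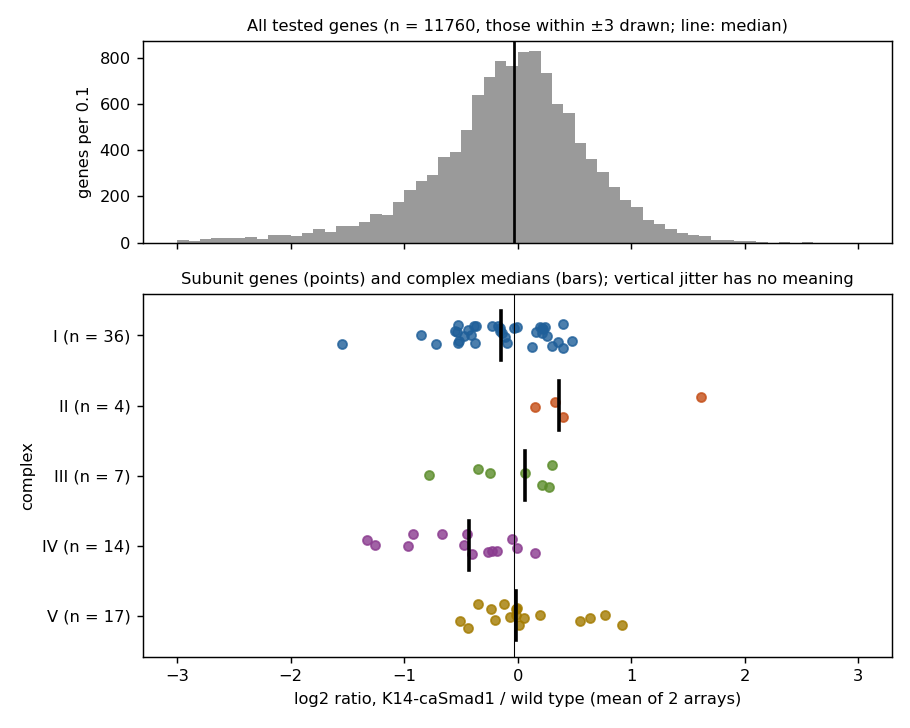
The upper panel is a histogram of the log2 ratio (K14-caSmad1 over wild type, mean of 2 arrays) of all 11760 measured genes in steps of 0.1, with a line at the median of -0.03. The lower panel shows each measured subunit gene as a point, by complex, with a bar at the median: complex II (0.36) sits to the right and complex IV (-0.43) to the left of the others, while 12 of 14 complex IV genes were below 0 on both arrays. With median centring complexes I and V turn to above 0.

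**Figure D2:**
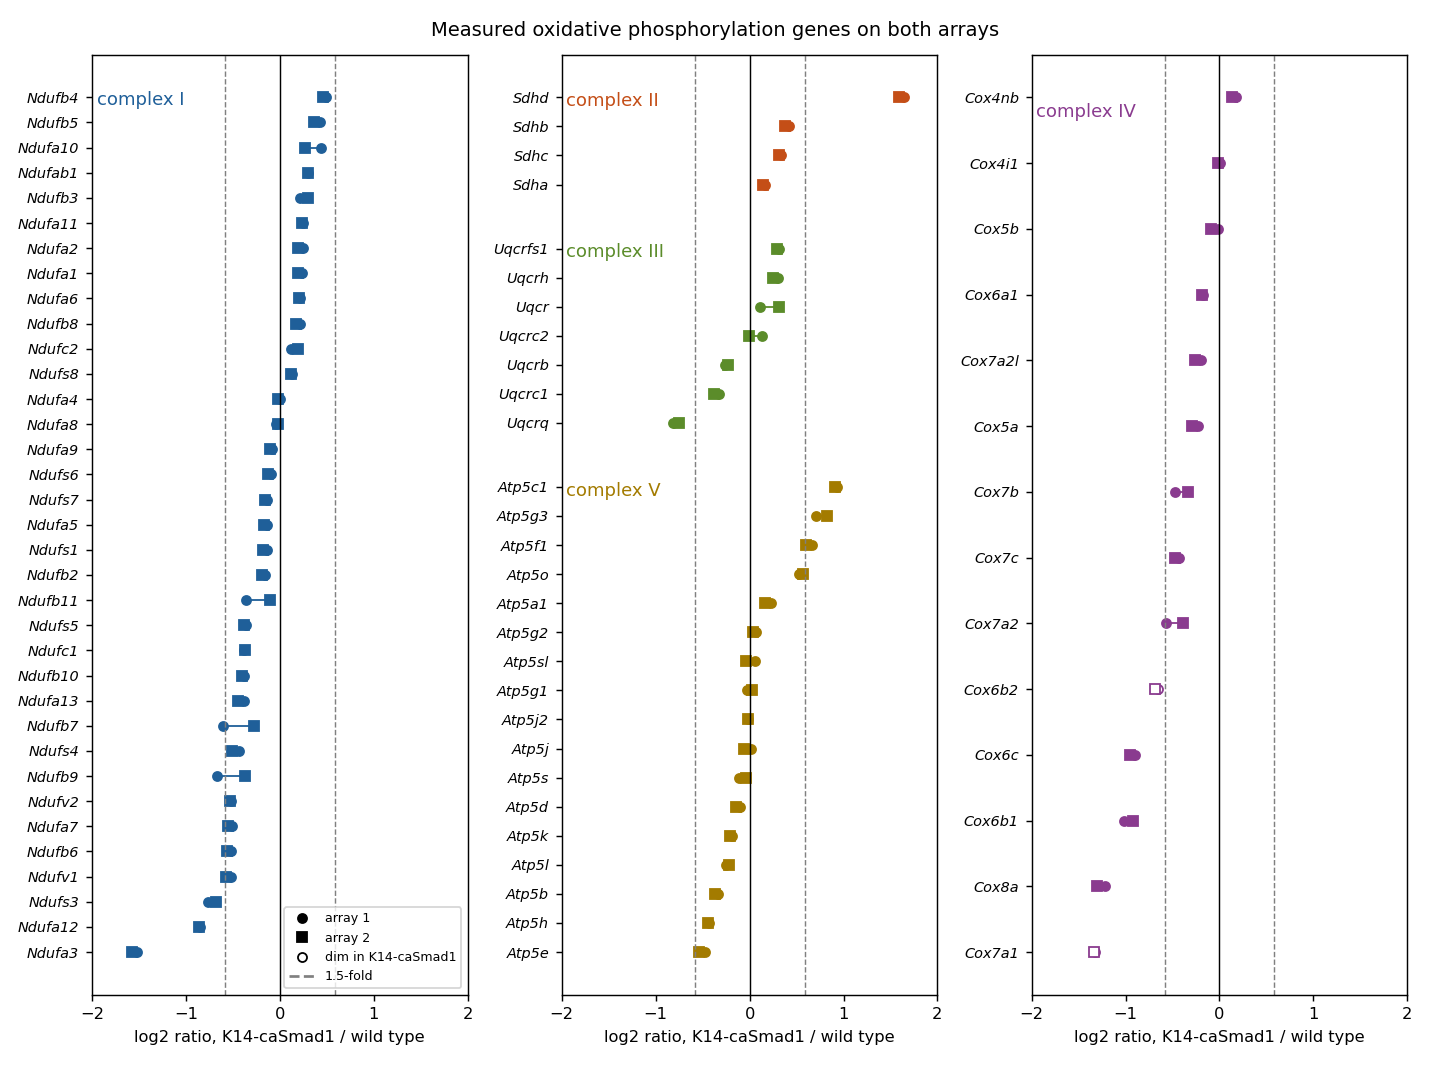
Each row is 1 measured subunit gene (1 gene of complex I is not drawn), with its log2 ratio on array 1 (circle) and array 2 (square), sorted within its complex. Open symbols mark genes not well above background in K14-caSmad1, and dashed lines mark 1.5-fold. Sdhd is far above the other members of complex II, the lowest complex I gene is Ndufa3, and most pairs of symbols touch.

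Among the 76 subunit genes seen in both channels, the largest differences on either side were those of Sdhd and Ndufa3. The 250 bases before the RefSeq start of these genes, and of the called genes Ndufs3 and Cox6b1, are shown because they hold, or in Ndufa3 lack, the short motif of ETS family factors such as GABP, known regulators of respiratory genes. Sequences are from RefSeq on build GRCm38.p6, 5′ to 3′ on the strand of the gene. Capitals mark CCGGAAG or its reverse complement. In Sdhd (chr9:50603850-50604099, minus strand) it begins 46 bases before the start, in Ndufs3 (chr2:90904722-90904971, minus strand) 27 bases and in Cox6b1 (chr7:30626115-30626364, minus strand) 28 bases. Ndufa3 (chr7:3617123-3617372, plus strand) has none in this window.
Sdhd: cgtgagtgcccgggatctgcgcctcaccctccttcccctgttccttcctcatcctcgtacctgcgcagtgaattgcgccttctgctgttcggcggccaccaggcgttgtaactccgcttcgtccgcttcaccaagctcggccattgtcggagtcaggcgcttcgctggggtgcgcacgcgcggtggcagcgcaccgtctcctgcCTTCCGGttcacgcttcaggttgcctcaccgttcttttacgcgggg
Ndufs3: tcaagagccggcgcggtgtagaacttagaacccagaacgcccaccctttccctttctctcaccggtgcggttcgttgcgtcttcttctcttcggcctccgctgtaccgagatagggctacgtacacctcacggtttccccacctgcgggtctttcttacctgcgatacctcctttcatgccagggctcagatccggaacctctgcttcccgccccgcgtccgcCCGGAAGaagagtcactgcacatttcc
Cox6b1: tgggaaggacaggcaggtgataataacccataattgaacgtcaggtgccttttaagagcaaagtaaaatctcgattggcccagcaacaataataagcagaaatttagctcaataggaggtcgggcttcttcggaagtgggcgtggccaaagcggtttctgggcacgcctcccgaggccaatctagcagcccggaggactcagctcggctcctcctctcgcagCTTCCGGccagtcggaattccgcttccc
Ndufa3: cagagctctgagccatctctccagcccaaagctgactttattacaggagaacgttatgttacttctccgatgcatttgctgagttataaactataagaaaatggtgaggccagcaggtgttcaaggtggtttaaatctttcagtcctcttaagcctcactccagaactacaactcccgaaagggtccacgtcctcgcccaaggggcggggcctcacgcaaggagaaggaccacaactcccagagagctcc

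Of the 83 genes 68 had an entry among the RefSeq promoters, and each window of 250 bases was searched on both strands for exact matches. CCGGAAG was found in 12 of the 68 (17.6%), against 7.83% of the 27025 genes in the table. The palindromic motif of NRF1 was found in 4 (5.9% against 0.88%) and that of YY1, AAGATGGCG, in 2 (2.9% against 0.71%). These shares are set against all genes in the table, measured here or not. They were not matched for base composition, so an excess particular to subunit genes was not tested. The 12 genes with the ETS letters lay on both sides: Sdhd was higher, Ndufs3 and Cox6b1 were lower, and the other 9, among them Atp5e, Atp5h, Ndufb6, Ndufb7 and Uqcrh, were not called. Their median log2 ratio was -0.34, and that of the 54 measured genes without the letters was -0.10. Atp5j held the ETS and YY1 letters, which can overlap, and Cox6a1 those of NRF1 and ETS. A match describes the letters and is no evidence of binding.

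Complex I was flat to slightly lower. None of its 36 genes was called higher in the values reported here, while Ndufb4 and Ndufb5 were among those called higher with median centring. Its matrix arm, which holds the flavin and the iron-sulfur clusters, has 7 nuclear core subunits, and 5 of these were below 0 on both arrays. Ndufs3, a core subunit near the ubiquinone site, was the only one called. It had log2 ratios of -0.76 and -0.68 on the arrays, 1.65-fold lower, with processed intensities of 4590 and 7848 in wild type and 2779 and 4882 in K14-caSmad1. Both arrays were thus past 1.5-fold for Ndufs3. The NADH-binding flavoprotein Ndufv1 was near the threshold, with -0.52 and -0.58. Its partner Ndufv2 had -0.52 and -0.53, but its other probe read 0.24. Ndufs1, the largest core subunit, had -0.13 and -0.18, and Ndufs7 had -0.13 and -0.15. Ndufs8, which carries iron-sulfur clusters, lay on the other side of 0, with 0.13 and 0.12.

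The 29 other genes with a complex I name code, apart from Ndufa4, for accessory subunits, which surround the core. Ndufa3, of the membrane arm, was the lowest of the subunit genes seen in both channels, with -1.52 and -1.58, 2.92-fold lower. Its processed intensities were 5809 and 5983 in wild type and 1909 and 1910 in K14-caSmad1, so the genotypes were well apart on both arrays. Ndufa12, an accessory subunit of the matrix arm, had -0.85 and -0.86, 1.81-fold lower. Its other 2 probes read -0.40 and -0.09, so the size of that difference depends on the probe. Ndufb4, of the membrane arm, was the highest of the complex I genes chosen by name, with 0.49 and 0.46, below the threshold. Ndufb9 and Ndufb7 passed 1.5-fold on array 1 (-0.67 and -0.60) and not on array 2 (-0.37 and -0.28), the widest gaps between arrays among the subunit genes. Ndufa4, which carries a complex I name and is now assigned to complex IV, had 0.01 and -0.02.

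All 4 complex II genes were above 0 on both arrays. Sdhd, a membrane anchor subunit that helps bind ubiquinone, had the highest value of all subunit genes, with log2 ratios of 1.64 and 1.59, 3.06-fold higher. Processed intensities were 2393 and 2248 in wild type and 8327 and 7692 in K14-caSmad1. It stood at percentile 99.5 of all measured genes. This rests on a single probe at chr9:50404630-50404689 on build mm9. The other anchor subunit, Sdhc, had 0.33 and 0.32. Sdhb, the iron-sulfur subunit, had 0.42 and 0.38. For Sdha, the flavoprotein that oxidises succinate, the values were 0.16 and 0.15, and a second probe of it read -0.04. The subunits of this small complex were thus unequal: its anchors alone spanned from 1.25-fold to 3.06-fold higher.

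Complex III had 1 called gene among 7, that is 14.3% beside 32.7% of all genes. Uqcrq, which codes for a small subunit in contact with cytochrome b, had -0.81 and -0.76, 1.72-fold lower, with processed intensities of 31465 and 33143 in wild type and 17433 and 19689 in K14-caSmad1. The Rieske iron-sulfur protein Uqcrfs1, a catalytic subunit, was the highest, with 0.31 and 0.30. The core proteins Uqcrc1 and Uqcrc2 had -0.32 and -0.38, and 0.13 and -0.01. On both arrays 3 genes of complex III were below 0 and 3 above it. Without replicate 1 the median of the complex turned from 0.06 to -0.01.

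Complex IV genes were the most often lower. Of 14 measured genes 12 were below 0 on both arrays, 5 were called lower and none (0) higher, that is 35.7% called lower beside 19.5% of all genes. The only gene above 0 on both arrays was Cox4nb (0.18 and 0.13), which is no longer named as a subunit, and without it the median was -0.45. Among the 12 genes seen in both channels 3 were lower and the median was -0.33. Of the 9937 genes of the whole series seen in both channels, 17.4% were lower, and their median was 0.0087. With the genes seen in wild type alone set at their lower bounds, 4 of the 14 genes of complex IV were lower. With median centring 9 of the 14 were below 0 and 5 above.

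The lower genes of complex IV were small structural subunits that surround its catalytic core. Cox8a had log2 ratios of -1.22 and -1.31, 2.40-fold lower, and processed intensities of 49603 and 41022 in wild type and 21611 and 16368 in K14-caSmad1. Cox6b1, on the side where cytochrome c docks, had -1.01 and -0.92, 1.95-fold lower, with 3933 and 4079 in wild type and 1887 and 2168 in K14-caSmad1. For Cox6c the values were -0.90 and -0.95, 1.90-fold lower, with 24521 and 25423 in wild type and 12598 and 13140 in K14-caSmad1. In all 3 genes the wild-type channel was clearly the brighter on both arrays. Cox7c had -0.43 and -0.47, Cox7b -0.47 and -0.34, and Cox5a -0.23 and -0.29, all short of the threshold. Cox5b lay near 0, with -0.02 and -0.09.

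Of the genes with a widely expressed and a tissue-specific form, Cox4i1, the common form of the largest nuclear subunit, had 0.00 and -0.01, while its partner Cox4i2 was not measured. Cox6a1 had -0.18 and -0.19, and its muscle partner Cox6a2 was not measured. The partner of Cox8a in muscle and brown fat, Cox8b, was not measured either. Cox7a2, the common form of its subunit, had -0.57 and -0.39. The muscle form Cox7a1 was well above background in wild type alone and was at least 1.96-fold lower in K14-caSmad1, with processed intensities of 417 and 423 in wild type and 32.7 and 21.0 in K14-caSmad1. The deposited table, without the offset, has -4.00 for it. The testis form Cox6b2 was also seen in wild type alone, at least 1.36-fold lower, with 277 and 218 against 72.5 and 42.7. Its bound is short of 1.5-fold. "At least" sets the bright channel against the dimmest signal that counts as well above background. Such bounds hold only for the processing reported here. With all spots in the background fit the log2 ratio of Cox7a1 was -0.78 and it was no longer called.

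Markers of other cells differed beside these tissue forms. Of 11 muscle markers Mylpf alone was measured, at -0.61, and the 10 others, Acta1 and Ckm among them, were not. Of 4 brown fat markers Ucp1 was not measured, while Cidea was at 0.74, Dio2 at 0.10 and Elovl3, which skin sebaceous glands also express, at -3.20. Of 6 white fat markers only Fabp4 was measured, at -4.67. All 4 measured melanocyte markers and all 3 measured erythroid markers were lower. Of these, 2 melanocyte markers (Mitf and Mlana) and 1 erythroid marker (Alas2) were seen in wild type alone. Such genes enter already differing. Among epidermal genes 5 of 6 keratinocyte markers were higher (median 1.60) and all 6 hair shaft markers were lower (median -5.23). Trp63, counted as higher at 1.69, read -0.78 on its other probe. Krt10, not called at 0.02, read 2.29 on its other probe. The part of these shifts in the subunit values was not tested.

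Complex V had 3 called genes among the 17 chosen by name, all higher, with 1 each in the head, the ring and the stalk. These were 17.6% of its genes, near the 13.2% of all genes that were called higher. The catalytic head of complex V is known as F1 and its membrane part, which carries protons, as Fo. Atp5c1, the turning shaft of the head, had 0.93 and 0.91, 1.89-fold higher, with processed intensities of 19681 and 18938 in wild type and 36938 and 36109 in K14-caSmad1. None of the other head subunits was called. Atp5a1 had 0.23 and 0.16, Atp5b, which holds the catalytic sites, -0.33 and -0.37, and Atp5d -0.11 and -0.14. The other probe of Atp5a1 read 0.32. Those of Atp5b read -0.30 and 0.34, so its direction depends on the probe. Atp5e was the lowest of the complex V genes chosen by name, with -0.48 and -0.54.

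The ring that turns in the membrane is made of subunit c, for which there are 3 genes that give the same mature protein. Atp5g3 had 0.71 and 0.83, 1.70-fold higher, with 22862 and 18830 in wild type and 39577 and 33648 in K14-caSmad1. Atp5g1 had -0.03 and 0.03, and Atp5g2 had 0.07 and 0.04. Of the 3, then, 1 was called and 2 lay near 0. In the stalk and the rest of the membrane part Atp5f1, the long b subunit of the side stalk, had 0.66 and 0.60, 1.55-fold higher, but its other probe read -0.40. Atp5o, which joins the side stalk to the head, had 0.53 and 0.56, just short of the threshold. Atp5h, also of the stalk, had -0.43 and -0.45, on the other side of 0.

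Several subunit genes had more than 1 measured probe, which tests how far a value belongs to the gene. Of 19 such genes 10 had probes within 0.2 of each other and 9 had probes on both sides of 0. In 5 the probes were apart by over 1.5-fold. The widest gap was that of Atp5f1 (0.63 and -0.40), followed by Ndufv2 (-0.52 and 0.24), Ndufa12 (-0.85 to -0.09), Ndufa8 (-0.03 and -0.77) and Atp5b (-0.35 to 0.34). Among the closest were Cox7a2 (-0.48 and -0.45), Ndufa11 (0.24 and 0.19) and Ndufa7 (-0.53 and -0.47). With the mean of all probes, Atp5f1 (0.12) and Ndufa12 (-0.45), the only called genes with several measured probes, were no longer called. The 11 others called, Sdhd, Ndufa3 and Cox8a among them, had 1 measured probe each, so the mean of probes could not change them.

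**Figure D3:**
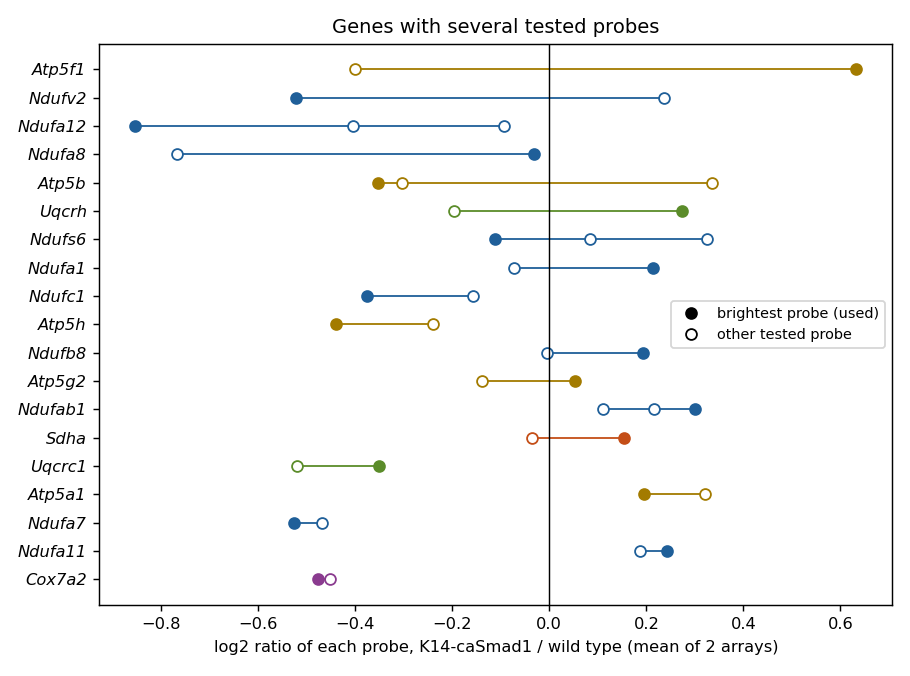
Each row is 1 of the 19 subunit genes with several measured probes, and each point the log2 ratio of a probe (K14-caSmad1 over wild type, mean of 2 arrays); filled points are the brightest probe, whose value is used. The probes of Atp5f1 lie at 0.63 and -0.40, while those of Cox7a2 nearly coincide.

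A few further subunits carry names of cDNA clones on the array and were picked out after their values were seen. Atp5mpl, a small membrane subunit of complex V, had -1.64 and -1.26, Ndufv3 of complex I had mean values of 0.49 and 0.35 on its probes, Usmg5 (now Atp5md) had -0.26 and Uqcr10 had -0.35.

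The probes for transcripts of the mitochondrial genome read lower than any nuclear subunit gene seen in both channels. Cox7a1, seen in wild type alone, has only a bound and cannot be ranked with them. CYTB, cytochrome b of complex III, had log2 ratios of -2.56 and -2.60, 5.98-fold lower. Its probe is at chrM:15099-15158 on mm9, and its processed intensities were 171604 and 161489 in wild type and 30364 and 26849 in K14-caSmad1. COX2, a catalytic subunit of complex IV, had -1.96 and -1.96, 3.89-fold lower, with 151021 and 157804 against 39162 and 41277. The file places that probe at chr1:24621739-24621798, and nuclear genomes hold copies of mitochondrial DNA, so the origin of its signal cannot be told apart. Other mitochondrially encoded subunits were not analysed by name here. Another 2 probes on chrM, picked out after their values were seen, were lower too: BC020382 (chrM:11370-11429) had -2.06 and -2.08, and BE368005 (chrM:11419-11475) had -4.65 and -3.97. Those 2 lie next to each other and overlap, yet their values were far apart, and the genes they read were not assigned. All 4 stayed lower with median centring and in the deposited table, where CYTB had -2.50 and -2.59. Among nuclear subunit genes seen in both channels the lowest, Ndufa3, was at -1.55.

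Other mitochondrial genes were taken from lists by role, and their calls are given beside the same 13.2% higher and 19.5% lower of all genes. Of 39 measured assembly factors 5 were higher and 2 lower (median 0.06). Tmem70, which helps build the ATP synthase, had 1.49 and 1.40, and Cox14, of complex IV assembly, 1.09 and 1.02. The complex IV factors Pet100 (-0.78 and -0.85) and Coa4 (-0.83 and -0.78) were lower. Of 18 electron carriers and enzymes that feed ubiquinone 2 were higher and 4 lower (median -0.09). Cytochrome c itself, Cycs, had 0.86 and 0.88, with other probes at 0.26 and 0.45. The ubiquinone synthesis genes Coq5 (-1.10 and -1.21) and Coq4 (-0.79 and -0.96) were lower. Gpd2, the mitochondrial glycerol phosphate dehydrogenase, had -1.43 and -1.37, but its other probe read 0.19.

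Of 18 genes of the citric acid cycle and pyruvate dehydrogenase 2 were higher and 2 lower (median -0.08, which turned to 0.22 with median centring). Dlat, a core enzyme of the pyruvate dehydrogenase complex, had 0.77 and 0.90, and Suclg2, of succinyl-CoA ligase, 0.73 and 0.81. Idh3b (-0.66 and -0.72) and fumarase, Fh1 (-0.67 and -0.70), were lower. Fh1 and complex II catalyse neighbouring steps of the cycle, and their log2 ratios had opposite signs.

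Of 14 regulators of mitochondrial biogenesis 2 were higher and 4 lower (median -0.09, or 0.18 with median centring). Tfam, which packages mitochondrial DNA and starts its transcription, had -1.99 and -2.06 on its brightest probe and 0.81 on the other, so that its direction depends on the probe. Ssbp1, which binds single-stranded mitochondrial DNA, had 1.05 and 1.04. Tfb2m, a partner of the mitochondrial RNA polymerase, and the coactivator Ppargc1b were seen in wild type alone, at least 1.83-fold and at least 1.71-fold lower. With all spots in the background fit their log2 ratios were -0.61 and -0.49. Another probe of Tfb2m, which did not pass the filter and is used when there is none, read -0.18. Of 23 membrane carriers, import proteins and inhibitors 3 were higher and 2 lower (median 0.10). The matrix chaperone Hspa9 had 1.34 and 1.29 (0.55 on its other probe), and Hspe1, a cochaperonin, 0.81 and 0.74. Tomm22 (-0.75 and -0.75) and Timm50 (-0.69 and -0.73), of the import machinery, were lower.

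**Figure D4:**
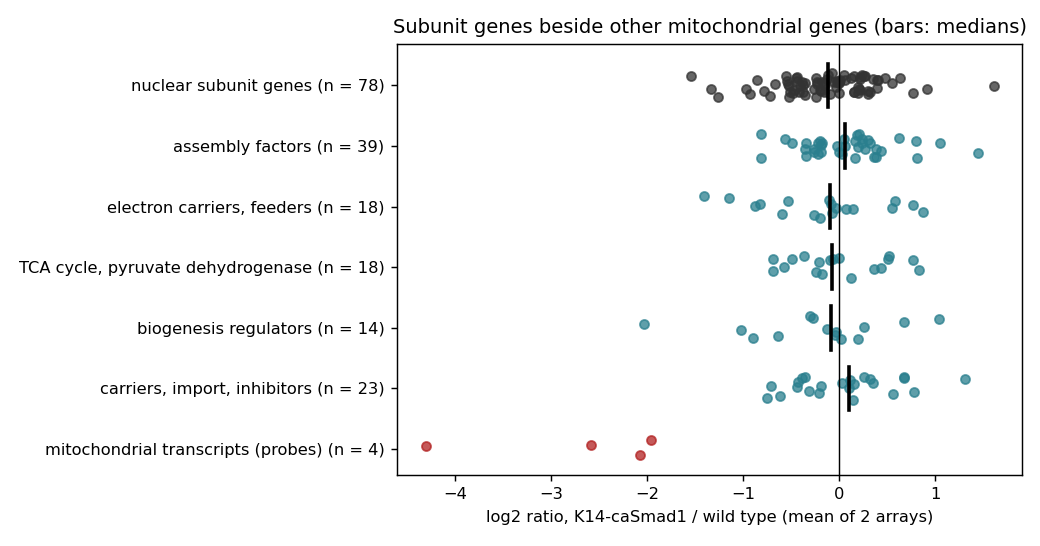
Points are log2 ratios (K14-caSmad1 over wild type, mean of 2 arrays) of the 78 measured subunit genes, of the genes of 5 other mitochondrial lists and of 4 probes for mitochondrial transcripts, and bars are medians. Medians of the gene lists lie between -0.12 and 0.10, while the mitochondrial transcripts lie from -1.96 to -4.31; the last 2 of these probes were picked out after their values were seen. With median centring the gene list medians below 0 turn to above 0.

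**Figure D5:**
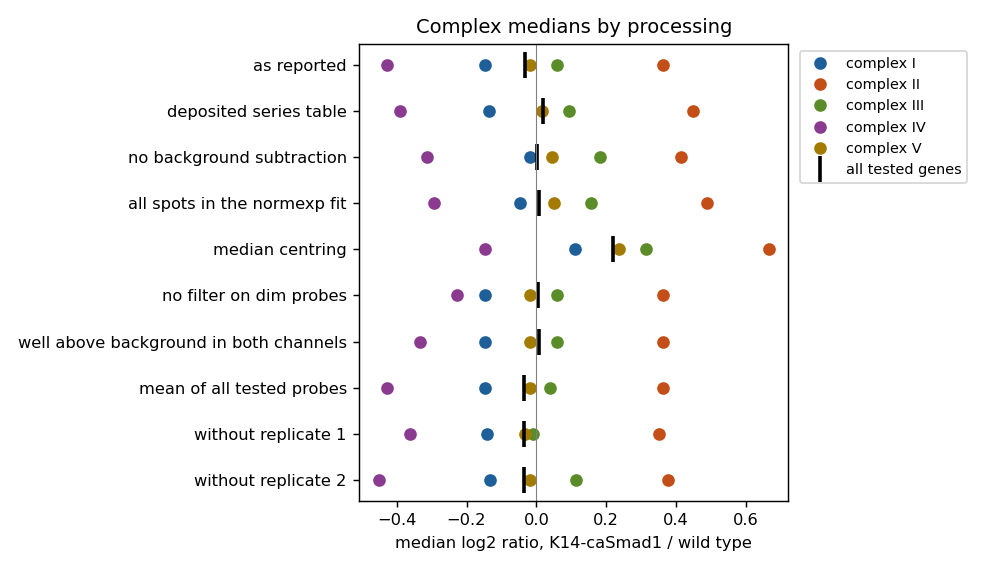
Each row is 1 way of processing, and the points are the median log2 ratios of complexes I to V, with a bar at the median of all measured genes. Complex II stays above and complex IV below the other complexes in every row, while complexes I and V turn to above 0 with median centring, complex V also with 3 other settings, and complex III turns to below 0 without replicate 1.

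Limma with Benjamini-Hochberg adjustment over all genes set each mean ratio against the spread between these arrays, not between animals. By it 26 subunit genes were higher and 41 lower at an adjusted p of 0.05, beside 40.8% and 46.3% of all genes (87.1% in either direction). The 11 genes that were not past it included Cox4i1, Cox5b, Ndufa4, Ndufa8, Atp5g1 and Atp5g2.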

How the data were processed

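Oxidative phosphorylation genes were read from 2 two-colour arrays of wild-type (Cy3) and K14-caSmad1 (Cy5) keratinocyte RNA. RNA was amplified before labelling, per the labels' protocols. The deposited scanner files (Agilent Feature Extraction 10.5.1.1, per the file headers) give, for each spot, mean signal and local background intensity, and processed signal intensity that was background-subtracted and dye-normalized. The deposited series table gives log10 ratios of processed Cy5 over Cy3 signal. It matched the scanner values within 0.00397 with a slope of 1, with medians of 0.023 and -0.01, so its scale and direction are known and no further centring was found. Probe positions are on mm9, per the file headers.

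Background was corrected with normexp (limma 3.58.1, R 4.3.3, offset 50), leaving out 36 spots flagged for an uneven local background, all on replicate 1, and log2 ratios were normalized within each array by loess (span 0.3, control spots weight 0). Feature outliers were dropped and repeat spots averaged. A gene takes the value of its brightest measured probe. The offset draws the ratios of dim probes towards 0. Names were updated through RefSeq (GRCm38.p6), by accession for 24844 probes, by symbol for 6045 and by synonym for 1810, and 8475 kept the file's name. The subunit genes keep the file's name. Tables were made with Python 3.11.15 and pandas 2.3.3.

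The labels call the arrays biological replicates. As no label shows separate animals, limma's p-values set each mean ratio against the spread between these arrays only. That spread may be technical, and the number of arrays limits the precision. The genes and lists were chosen with earlier results of these data known. Named genes are all called members, the extremes of each complex, all of complex II, the isoform pairs of complex IV, the subunit c genes, the complex I core and up to 4 called genes with the largest ratios in each related list. Alternatives tried were median centring, no background subtraction, all spots in the normexp fit, the deposited table, no filter, a filter on both channels, the mean of all probes, each array alone and a 2-fold threshold. A further one, leaving out the 3 genes that RefSeq names otherwise, was chosen after seeing the data. The fit was tested on simulated data. Protein sequences were not used here. The values of 1 gene of complex I enter the counts and medians and are not reported here.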

Additional observations from a re-analysis of the deposited data

How the results depend on the processing

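Of the 13 calls, 13 were kept in the deposited table and with no filter, 11 with no background subtraction, 10 with all spots in the normexp fit and 9 with median centring. All spots in the fit lost Cox6b2, Cox7a1 and Ndufs3, and median centring lost Cox6b2, Ndufa12, Ndufs3 and Uqcrq. Other counts were fixed by the rules. Either array alone kept all 13, because a call needs both arrays. Requiring both channels kept 11, because Cox6b2 and Cox7a1 were seen in wild type alone. The mean of probes kept the 11 with 1 measured probe, which it could not change, and lost Atp5f1 and Ndufa12. Median centring gave 11 higher and 5 lower genes and medians of 0.14 for all subunit genes, 0.11 for complex I, 0.66 for II, 0.31 for III, -0.15 for IV and 0.24 for V (all genes 0.22, electron carriers 0.13, citric acid cycle 0.22, biogenesis 0.18). At 2-fold 1 was higher and 3 lower. Without background subtraction the medians were -0.001 for all subunit genes, -0.0177 for complex I, 0.41 for II, 0.18 for III, -0.31 for IV and 0.0445 for V (all genes 0.0017). With all spots in the fit they were -0.0245, -0.046, 0.49, 0.16, -0.29 and 0.0512 (all genes 0.0065, citric acid cycle 0.0187). The deposited table gave -0.10 for all subunit genes, -0.14 for I, 0.45 for II and 0.0166 for V (all genes 0.0183, citric acid cycle 0.0183). No filter gave -0.0925 for all subunit genes and -0.23 for IV (all genes 0.0046), both channels -0.10 and -0.33 (all genes 0.0087), the mean of probes 0.11 for the citric acid cycle, and leaving out the 3 renamed genes -0.14 for all. With a single array the ranges were 4 to 4 higher and 9 to 11 lower genes, -0.12 to -0.11 for all, -0.14 to -0.13 for I, 0.35 to 0.38 for II, -0.0109 to 0.11 for III, -0.45 to -0.36 for IV and -0.0336 to -0.0173 for V. The cause of these shifts was not tested. Each ratio already pairs the genotypes, which share an array. Beyond that, no paired analysis was possible because each array gives 1 ratio. Negative control spots varied more in Cy5 than in Cy3, which limits dim K14-caSmad1 values such as Cox7a1 and Cox6b2.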
